A study of Sus scrofa with 24 samples.

Results

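Proteasome subunits and ubiquitin-conjugating enzymes (E2s) were followed in pig skeletal muscle through development. The members are every gene whose symbol in the array annotation begins with PSMA, PSMB, PSMC, PSMD, PSME, PSMF or PSMG and a number, or with UBE2. This gave 64 genes, 40 of the proteasome and 24 E2s, among the 6765 genes that the annotation names singly. They hold 86 probe sets, and the brightest probe set of each gene by mean over the arrays stood for it. By role the proteasome genes were 7 of the alpha ring and 7 of the beta ring of the core particle, 5 ATPases and 10 other subunits of the regulatory cap, 4 assembly factors, 4 genes of the immunoproteasome, and 3 other activators or inhibitors. PSMB9, PSMC4, PSMD7, POMP, UBE2D1 and UBE2S, among others, had no probe set with that symbol alone and were not analysed here.

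Longissimus dorsi, the long back muscle, was taken from Pietrain (Pi) and German Landrace (DL) pigs. Fetal muscle came from 35, 63 and 91 days post conception (dpc), and adult muscle was added for both breeds; each of these 8 groups held 3 RNA pools, named a to c, and no treatment or genetic change is given for any. Each of the 24 pools was hybridised to 1 Affymetrix porcine array, and the values are quantile-normalised log2 intensities, so a change is always set against the rest of the array. The groups follow the stage labels; the sample descriptions of all fetal pools speak of peripubertal pigs instead, and the 35 dpc titles carry a K that no label explains. How many animals made up a pool, of which sex, and how old the adults were is not stated in the labels. The p-values measure differences against the spread between pools, which may be technical. In whole tissue, fewer cells of a type and less RNA per cell cannot be told apart.

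The proteasome is the cell's main machine for breaking down marked proteins. Its barrel-shaped core cuts proteins in a closed chamber, and the cap binds ubiquitin chains, removes them and unfolds the substrate with a ring of ATPases. E1 enzymes activate ubiquitin, E2s carry it, and ligases choose the protein to be marked; in adult skeletal muscle this route is best known for the loss of myofibrils during fasting, disuse and disease.

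All 14 measured muscle markers lay above the background ceiling in every group. The ceiling is the brightest negative control of an array, between 2.31 and 2.69. The log2 of the markers' summed linear intensity ranged from 16.93 to 17.10 over the 35 dpc pools and from 19.11 to 19.17 over the adult pools. The other cell types changed with stage too. The same sum for 7 nerve and glia markers ranged from 15.23 to 15.54 over the 35 dpc pools and from 6.56 to 7.81 over the adult pools, where 5 of 7 were at background in DL and 6 in Pi, and that of 14 markers of dividing cells ranged from 12.89 to 13.14 over the 35 dpc pools and from 8.48 to 9.03 over the adult pools. Of 10 endothelium markers, 8 rose at 63 over 35 dpc and 10 at 91 over 63 dpc, and 1 rose and 6 fell in adults. Of 6 measured adipocyte markers, 3, 5 and 3 rose at the 3 steps and 1 fell in adults, and of 5 erythroid markers 2 fell at 63 dpc and 3 in adults. Of 11 liver and plasma genes, 2 fell at 91 dpc, and 3 rose and 1 fell in adults, where their log2 summed level ranged from 9.10 to 15.64 over the Pi pools and from 10.08 to 11.33 over the DL pools. The part of these cell types in the results was not tested. The log2 difference between the 3' and 5' GAPDH controls, a sign of RNA quality, was -0.61 to -0.39 in the adult pools and 0.25 to 1.31 in the fetal ones. The same difference for actin did not follow that order: it was 2.12 to 2.68 at 35 dpc, 1.21 to 1.55 at 63 dpc, 1.41 to 2.99 at 91 dpc and 2.28 to 2.59 in adults. Adult Pi pool b had 23.8% of probe sets at or below the ceiling, against 30.8% to 32.2% in the other adult pools, and DL pool c at 91 dpc had a GAPDH difference of 1.16 and an actin difference of 2.99, against 0.25 and 0.28 and against 1.41 and 1.42 in its group.

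**Figure D1:**
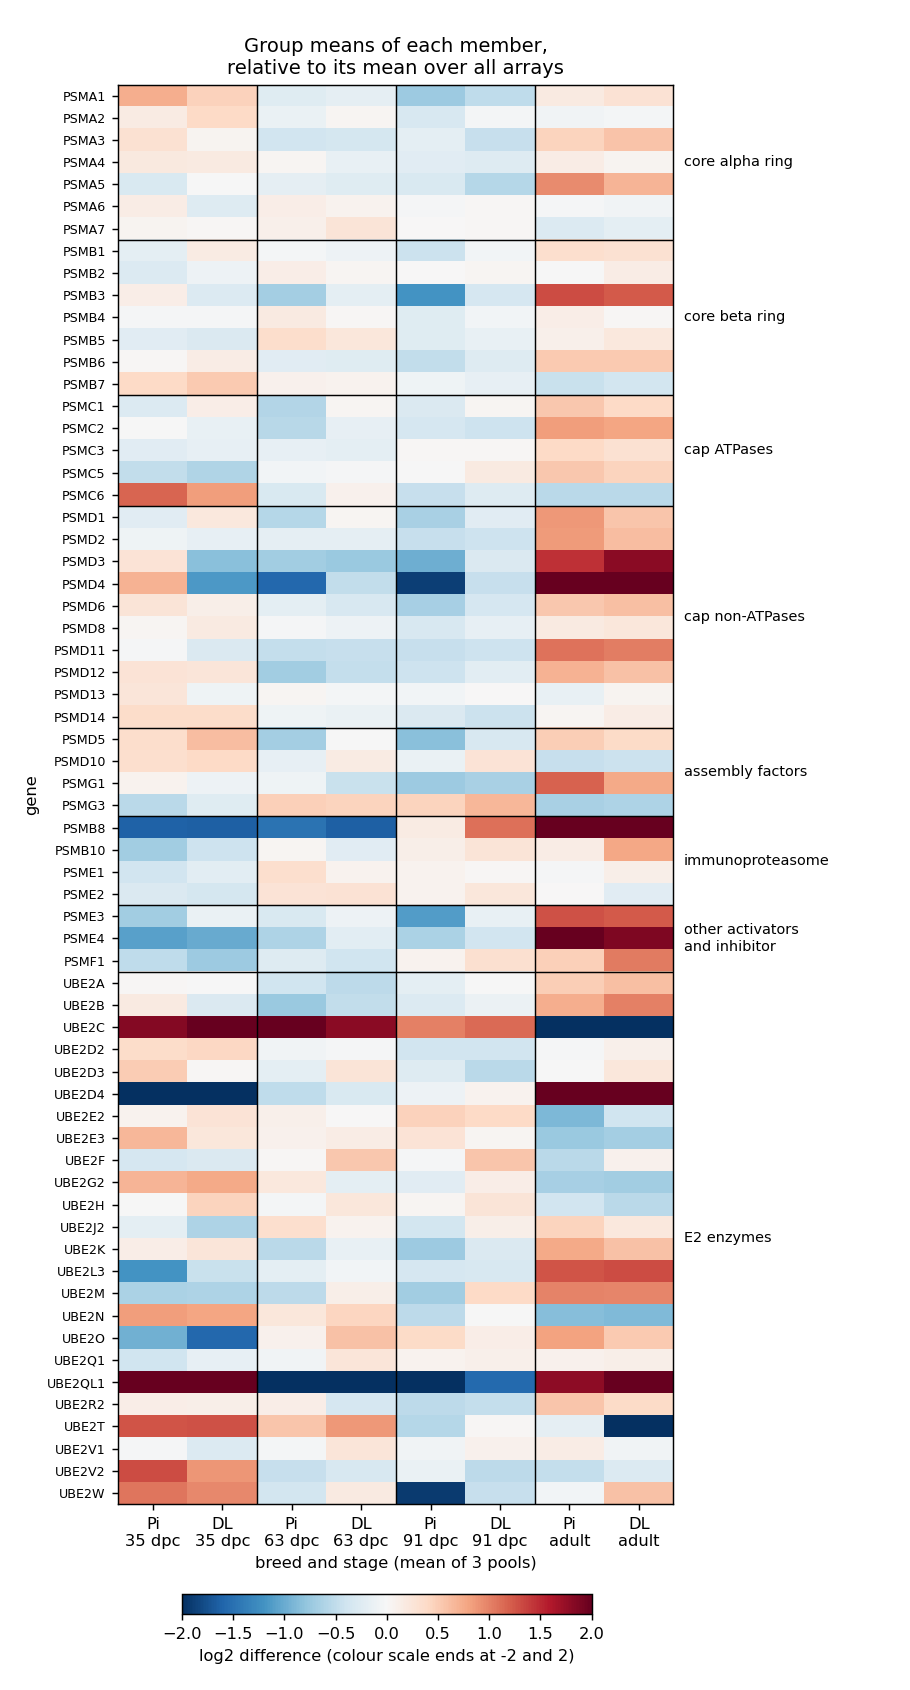
Mean log2 intensity of the 64 members (rows, ordered by role) in each breed and stage (columns, mean of 3 pools), minus the member's mean over all 24 arrays; red is above and blue below that mean, with the colour scale ending at -2 and 2. Cap subunits are mostly red in the adult columns and blue at 91 dpc, while UBE2C is at its lowest in adults.

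The first comparison set 63 dpc against 35 dpc, with both breeds weighted equally. In the cap 10 of 15 genes and in the core 7 of 14 were lower at 63 dpc, 3 of 4 immunoproteasome genes were higher, and E2s went both ways. Of the 64 members, 15 were called higher and 30 lower by limma at a Benjamini-Hochberg adjusted p under 0.05. Over all 23999 probe sets tested, 22.3% were called higher and 22.0% lower, and over the 6765 genes 30.5% and 24.1%. The median change was -0.22 on the log2 scale over the members and 0.03 over all genes. Centring the arrays on bright probe sets instead moves the median of all probe sets to -0.12 for this step. The largest rises and falls named at each step were picked among called members whose pools did not overlap between the stages. Lack of overlap therefore adds no support for them.

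In the core particle, 2 of 14 genes rose and 7 fell at 63 dpc, with a median change of -0.15. PSMA1, of the alpha ring that forms the gate of the barrel, had 10.31, 10.61 and 10.17 in Pi and 10.45, 10.34 and 10.49 in DL at 63 dpc, against 11.54, 11.18 and 11.26 in Pi and 11.09, 11.08 and 11.02 in DL at 35 dpc. Every pool at 63 dpc was below every pool at 35 dpc. The change was -0.80 ± 0.08 (SE; adjusted p from limma 3.2e-07). PSMA3 fell by 0.54 and PSMA2 fell by 0.34. The 3 catalytic subunits of the standard core moved apart: PSMB5, which carries the chymotrypsin-like site, rose by 0.55 ± 0.07, while PSMB6 (caspase-like) fell by 0.31 ± 0.09 and PSMB7 (trypsin-like) fell by 0.39 ± 0.06. The pools of both stages did not overlap for any of these 3 genes. PSMB2 was the other core gene that rose, by 0.27. Within Pi alone the falls of PSMB6 (-0.25) and PSMA4 (-0.17) did not pass, and within DL alone the rise of PSMB2 (0.13) did not.

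In the cap, 1 of 15 genes rose and 10 fell at 63 dpc, with a median change of -0.29. Within Pi alone the count was 1 higher and 10 lower, and within DL alone it was 2 higher and 5 lower. PSMC6, a cap ATPase, had the largest fall of the proteasome members, -1.11 ± 0.09 (adjusted p from limma 1.0e-08). Its pools measured 10.996, 10.98 and 11.10 in Pi and 11.52, 11.45 and 11.27 in DL at 63 dpc, against 12.42, 12.49 and 12.58 in Pi and 12.14, 12.17 and 12.19 in DL at 35 dpc. All pools at 63 dpc lay below those at 35 dpc, and the fall was larger in Pi, a difference tested with the breeds. PSMD12, a structural subunit of the lid, fell by 0.84, PSMD14, the deubiquitinase of the lid, fell by 0.48, and PSMD6 fell by 0.44. PSMC5, another ATPase, was the exception and rose by 0.51 ± 0.08, with no overlap of the pools. Among assembly factors, PSMG3, a chaperone of the alpha ring, rose by 0.85 ± 0.11, whereas PSMD5 and PSMD10, chaperones of the cap base, fell by 0.83 and 0.37.

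The averaged cap count also holds small or uneven falls. PSMC1, PSMC2, PSMD1 and PSMD11 fell by 0.20 to 0.32 with overlapping pools, and PSMD3 fell by 0.44. PSMD4 fell by 0.81 on average over both breeds, with steps of opposite sign in Pi and DL that are given with the breed comparisons. The calls of PSMD3, PSMD1 and PSMC1 at this step were lost in 8, 3 and 2 of the 24 fits that left out 1 pool, and those of PSMB3 (-0.37), a core subunit, and PSMD10 in 7 and 6. PSMB3 and UBE2D3 did not pass with the GAPDH covariate. Leaving out single pools gave 25 to 30 members called lower. Within DL alone the steps of PSMC1, PSMC2, PSMD1, PSMD10 and PSMD11 did not pass, at -0.24 to -0.01, and those of PSMD3 (0.09) and PSMB3 (0.07) lost their negative sign. The core genes PSMA5, PSMA6, PSMA7, PSMB1 and PSMB4, the cap genes PSMC3, PSMD2, PSMD8 and PSMD13, and PSMG1, PSME3 and PSMF1 did not pass. The other PSMF1 probe set was called higher at this step (0.78, adjusted p from limma 0.00769). PSMA4, of the alpha ring, fell by 0.25 and PSME4 rose by 0.64.

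Of the 24 E2s, 7 rose and 11 fell at 63 dpc, where 30.5% of the 6765 genes rose and 24.1% fell. The count of E2s that rose is near that share. UBE2QL1, whose role is less well known, had the largest change. Its pools measured 3.15, 4.88 and 4.65 in Pi and 5.36, 4.21 and 4.48 in DL at 63 dpc, against 9.996, 9.47 and 9.20 in Pi and 10.04, 9.81 and 9.80 in DL at 35 dpc. The stages did not overlap, and the change was -5.27 ± 0.28 (adjusted p from limma 2.59e-11). All 7 measured nerve and glia markers fell at this step too, with a median change of -9.47, and their part in the result was not tested. UBE2V2, the catalytically inactive partner of UBE2N in building non-degradative chains, fell by 1.49 ± 0.11, and UBE2N itself fell by 0.48. UBE2A and UBE2B, the mammalian RAD6 homologues, fell by 0.47 and 0.56. Within DL alone the steps of UBE2B (-0.21, adjusted p from limma 0.344) and UBE2N (-0.35, 0.0596) did not pass.

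The largest rise was that of UBE2D4, a member of the broadly acting UBE2D family. It measured 7.06, 6.78 and 7.05 in Pi and 7.02, 7.47 and 7.04 in DL at 63 dpc, against 4.38, 4.98 and 3.31 in Pi and 4.15, 4.94 and 4.40 in DL at 35 dpc. No pool overlapped and the change was 2.71 ± 0.21; of its dimmer probe sets one rose by 1.78 and the other was at background in all 12 pools. UBE2O, a large enzyme with both E2 and ligase activity, rose by 1.601 ± 0.14 (adjusted p from limma 2.13e-08). A dimmer UBE2O probe set, with means of 3.29 at 63 dpc and 3.08 at 35 dpc, did not pass (0.21, adjusted p from limma 0.797). The 2 E2s of the ubiquitin-like protein NEDD8 also rose, UBE2F by 0.60 and UBE2M by 0.43. UBE2L3 rose by 0.70. The other UBE2L3 probe set did not pass here (-0.03, adjusted p from limma 0.916). It fell by 0.54 at 91 over 63 dpc, where the brightest did not pass. UBE2J2, an E2 of the endoplasmic reticulum, rose by 0.61, and UBE2Q1 by 0.36. UBE2G2, which also serves degradation at the endoplasmic reticulum, fell by 0.71, UBE2K by 0.53, UBE2D2 by 0.44, UBE2E3 by 0.33 and UBE2D3 by 0.23, the last a call lost in 16 of the 24 fits without 1 pool. UBE2W fell by 1.11 ± 0.30 with overlapping pools. Within Pi alone the steps of UBE2F (0.36), UBE2M (0.12) and UBE2G2 (-0.47) did not pass. Within DL alone those of UBE2L3 (0.38), UBE2K (-0.39), UBE2E3 (-0.08) and UBE2W (-0.78) did not, and that of UBE2D3 was 0.24. UBE2C, UBE2E2, UBE2H, UBE2R2, UBE2T and UBE2V1 did not pass.

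The second comparison, 91 over 63 dpc, found fewer changes. Of the 64 members, 4 were called higher and 14 lower, where 8.88% of all probe sets tested were called higher and 9.40% lower, and over the 6765 genes 12.9% and 13.7%. In the core particle 4 of 14 genes fell and none rose: PSMB5 by 0.49, PSMA1 by 0.41, PSMB4 by 0.25 and PSMB7 by 0.20. In the cap 3 of 15 fell and none rose: PSMD2 by 0.26, PSMD14 by 0.25 and PSMD6 by 0.24. The assembly factor PSMG1 fell by 0.42. The calls of PSMB7, PSMD2 and PSMD6 were lost in 6, 10 and 19 of the 24 fits that left out 1 pool, and that of PSMB4 in 1. Within Pi alone PSMB7, PSMD2 and PSMD14 did not pass, and within DL alone PSMA1, PSMB4, PSMB7, PSMD2, PSMD6 and PSMG1 did not. Fitted on the 63 and 91 dpc arrays alone, PSMD2, PSMD6 and PSMG1 did not pass, and with dim probe sets left out PSMB7, PSMD2 and PSMD6 did not.

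Among the 24 E2s, 3 rose and 6 fell at 91 dpc, where 12.9% of the 6765 genes rose and 13.7% fell. The count of E2s that rose is near that share. UBE2C, the E2 that starts chains for the anaphase-promoting complex in mitosis, measured 8.44, 7.97 and 8.33 in Pi and 8.43, 8.40 and 8.30 in DL at 91 dpc, against 9.37, 9.47 and 9.42 in Pi and 8.88, 9.13 and 9.11 in DL at 63 dpc. The stages did not overlap, and the change was -0.92 ± 0.09. Of 14 measured markers of dividing cells, 9 fell and none rose at this step. UBE2N fell by 0.60 ± 0.10 and UBE2D2 by 0.33, while UBE2A and UBE2B rose by 0.36 and 0.42. As the mean of all its probe sets UBE2A changed by 0.23 (adjusted p from limma 0.093). Within Pi alone UBE2A (0.20), UBE2D2 (-0.31) and UBE2D3 (-0.06) did not pass, and within DL alone UBE2B (0.38), UBE2R2 (-0.15) and UBE2W (-0.64) did not. UBE2D3 fell by 0.44, and UBE2R2 by 0.40 with a call lost in 3 of the 24 fits. UBE2W, which marks the amino terminus of proteins, fell by 1.09 ± 0.30, with overlapping pools. UBE2QL1 was 0.94 ± 0.28 higher at 91 dpc, a call that was lost in 6 of the 24 fits without 1 pool and within either breed alone. Fitted on the 63 and 91 dpc arrays alone, UBE2QL1, UBE2R2 and UBE2W did not pass.

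The third comparison, adults over 91 dpc, showed the broadest rise of the proteasome. Of the 64 members, 41 were called higher and 13 lower, where 30.8% of all probe sets tested were called higher and 26.6% lower; over the 6765 genes these were 35.4% and 31.5%. The median change was 0.45 over the members and 0.07 over all genes. With the GAPDH difference of each array as a covariate, which separates adult from fetal pools, the counts were 18 higher and 7 lower, and those over all probe sets were 2458 and 2812, against 7394 and 6378 without it. Of the 41 members called higher, 18 were still called and 35 kept a positive change in that fit; PSMB1, PSMB5, PSMD8, UBE2D2, UBE2J2 and UBE2W did not keep it, at -0.34 to 0.00. Without adult Pi pool b or any other single pool, 39 to 43 were called higher and 10 to 13 lower.

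**Figure D2:**
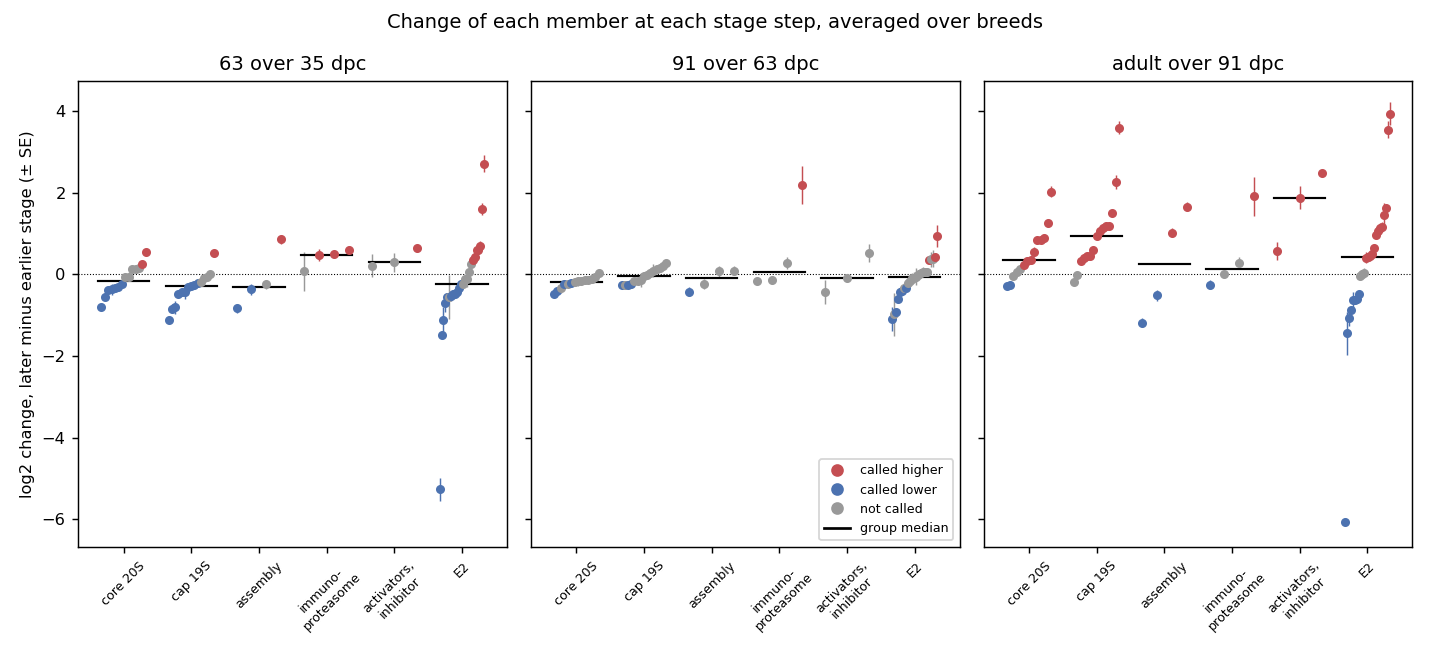
Log2 change of each member (points, ± SE from limma) at the 3 stage steps, by role; red points were called higher, blue lower and grey neither, and black lines mark the group medians. In adults over 91 dpc, 13 of 15 cap genes were called higher and none lower.

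In the cap, 13 of 15 genes rose in adults and none fell, with a median change of 0.95; the GAPDH covariate left 8 higher and 1 lower. The median of the 10 cap subunits that are not ATPases was 1.104, and 9 of them rose. PSMD4, a ubiquitin receptor of the cap, had the largest rise of the proteasome members. It measured 12.08, 11.91 and 11.85 in Pi and 12.03, 11.81 and 12.12 in DL adults, against 7.35, 7.60 and 8.05 in Pi and 9.09, 9.13 and 9.02 in DL at 91 dpc. Every adult pool lay above every pool of 91 dpc, by 3.60 ± 0.16 on the log2 scale or 12.1-fold (adjusted p from limma 1.99e-12). With the covariate the change was 3.59.

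PSMD3, a lid subunit, measured 10.42, 9.97 and 9.85 in Pi and 10.34, 10.51 and 10.41 in DL adults, against 7.98, 7.08 and 7.88 in Pi and 8.01, 8.66 and 8.32 in DL at 91 dpc. The stages did not overlap, and the change was 2.26 ± 0.16. PSMD11, a lid subunit known for promoting proteasome assembly, rose by 1.49 ± 0.08, and the large scaffold subunits PSMD1 and PSMD2 rose by 1.14 and 1.17. The lid subunits PSMD6, PSMD12, PSMD14 and PSMD8 rose by 1.07, 0.95, 0.45 and 0.44. Of the ATPases, PSMC2 rose by 1.19 ± 0.07, while PSMC1, PSMC3 and PSMC5 rose by 0.34 to 0.59. PSMC6 (-0.17 ± 0.09) and PSMD13 (-0.02 ± 0.08) did not pass the test. With the covariate PSMC1, PSMC2, PSMD1, PSMD2, PSMD3, PSMD4, PSMD6 and PSMD11 were still called higher, and PSMD13 was called lower (-0.73, adjusted p from limma 0.00264). The changes of PSMC3 (0.15), PSMC5 (0.25), PSMD8 (-0.11), PSMD12 (0.50) and PSMD14 (0.22) did not pass in that fit, nor did PSMC5 within DL alone (0.27).

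The core particle changed less evenly, with 9 of 14 genes higher and 2 lower in adults and a median of 0.35; the covariate left 3 higher and 1 lower. PSMB3, a beta subunit with no catalytic site, measured 10.34, 10.13 and 10.04 in Pi and 10.21, 9.81 and 10.25 in DL adults, against 7.40, 7.80 and 7.84 in Pi and 8.63, 8.26 and 8.73 in DL at 91 dpc. The adult pools were all higher, by 2.02 ± 0.14 (adjusted p from limma 4.34e-10). PSMA5 rose by 1.25 ± 0.09, PSMB6 by 0.90 ± 0.09, PSMA1 by 0.85, PSMA3 by 0.83, PSMB1 by 0.56, PSMB5 by 0.36, PSMA4 by 0.34 and PSMB4 by 0.22. PSMB7 fell by 0.28 ± 0.06 and PSMA7 by 0.25 ± 0.09, the second of these with a call lost in 6 of the 24 fits without 1 pool. PSMA2, PSMA6 and PSMB2 did not pass the test, with changes of -0.05 to 0.12. With the GAPDH covariate PSMB3 (2.56), PSMA3 (1.16) and PSMA5 (0.77) were still called higher and PSMB7 (-0.63) lower. The calls of PSMA1 (0.61), PSMB6 (0.24), PSMB4 (0.23), PSMA4 (0.10), PSMB5 (0.00), PSMA7 (-0.06) and PSMB1 (-0.21) were lost. Within DL alone PSMB1, PSMB4, PSMA7 and PSMB7 did not pass, and within Pi alone PSMA7 did not.

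All 3 genes of the other activators and the inhibitor rose in adults. PSME4, a large single-chain activator that caps the core in place of the ATPase cap, measured 10.69, 10.55 and 10.35 in Pi and 10.40, 10.39 and 10.25 in DL adults, against 7.79, 7.93 and 7.81 in Pi and 8.23, 8.07 and 7.96 in DL at 91 dpc. No pool overlapped, and the change was 2.47 ± 0.09, or 5.56-fold. PSME3, a nuclear activator, rose by 1.88 ± 0.29, and with the GAPDH covariate the change was 0.68 with an adjusted p of 0.618 from limma. PSMF1, first described as an inhibitor, was 0.56 ± 0.22 higher, a call lost in 5 of the 24 fits without 1 pool. The other PSMF1 probe set rose by 1.54 (adjusted p from limma 1.03e-05). Of the assembly factors, PSMG1 rose by 1.66 ± 0.11 and PSMD5 by 1.02, while PSMG3 fell by 1.19 ± 0.11 and PSMD10 by 0.51. With the covariate PSME4 (2.36), PSMG1 (1.23) and PSMG3 (-1.08) kept their calls, and PSMF1 (0.11), PSMD5 (0.76) and PSMD10 (-0.62) lost theirs. By its brightest probe set PSMF1 passed within neither breed alone, and PSMD10 did not within Pi.

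Many of the members that fell at 63 dpc rose in adults. Of the 30 members called lower at 63 over 35 dpc, 22 were called higher in adults over 91 dpc, which is 73.3% of the first list and 53.7% of the 41 in the second. Over all 6765 genes, 474 of the 1627 called lower were called higher in adults, 29.1% of the first list and 19.8% of the second. These 2 comparisons share no pool. Of the 22, PSMA1, PSMA4, PSMB6, PSMD5, PSMD12, PSMD14, UBE2A, UBE2B, UBE2D2, UBE2D3, UBE2K and UBE2W lost the adult call with the GAPDH covariate. PSMB3, PSMD3, PSMD4 and UBE2D3 had a positive first step within DL alone. PSMC2, called lower and then higher, had stage means of 11.14 at 35 dpc, 10.85 at 63 dpc, 10.83 at 91 dpc and 12.02 in adults. PSMD11 had 11.11, 10.80, 10.83 and 12.32 in the same order. PSMC6, PSMA2 and UBE2V2 fell at 63 dpc and passed no later test, and PSMB7 and UBE2N fell at each of the 3 steps.

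Of the E2s, 13 of 24 were higher and 8 lower in adults, where 35.4% of the 6765 genes were higher and 31.5% lower. The count of lower E2s is near that share. UBE2C fell to 2.38, 2.15 and 2.53 in Pi and 2.23, 2.11 and 2.10 in DL adults, at or below background in all 6 pools, against the values of 91 dpc given above. Its level was at least 52.7-fold lower than at 91 dpc, where the bound takes the array's background level for the adult pools (fitted change -6.06, adjusted p from limma 2.9e-19). Markers of dividing cells fell with it, 13 of 14, and 6 of 14 were at background in the adults of each breed. A second, dim UBE2C probe set was called higher in adults, but 3 of its adult pools and 5 of its 6 pools of 91 dpc were at background. UBE2T, the E2 of the Fanconi anaemia DNA repair pathway, measured 6.40, 6.98 and 7.36 in Pi and 6.88, 2.21 and 2.50 in DL adults, against 6.60, 6.39 and 6.62 in Pi and 7.36, 6.93 and 7.08 in DL at 91 dpc. DL adult pools b and c were at background, and the others overlapped with 91 dpc. The fitted change was -1.44 ± 0.53, a call lost in 4 of the 24 fits without 1 pool: without DL adult pool b it was -1.03 with an adjusted p of 0.0854 from limma, and without pool c -1.10 with 0.0832. Without DL pool a at 91 dpc and adult Pi pool a the adjusted p was 0.0523 and 0.0595. Within Pi alone the step was 0.38 (adjusted p from limma 0.728).

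UBE2D4 rose again in adults, to 10.70, 10.93 and 11.004 in Pi and 11.14, 10.88 and 11.36 in DL, against 7.30, 7.31 and 7.52 in Pi and 7.76, 7.36 and 7.49 in DL at 91 dpc. The change was 3.55 ± 0.21, and of its dimmer probe sets one rose by 4.09 and the other, at background in all 6 pools of 91 dpc, was at least 27.9-fold higher in adults. UBE2QL1 rose to 8.92, 8.97 and 9.15 in Pi and 9.71, 9.65 and 9.59 in DL adults, against 5.78, 4.51 and 5.06 in Pi and 5.22, 5.94 and 5.84 in DL at 91 dpc. That is a change of 3.94 ± 0.28 to levels that overlap those of 35 dpc. At this step 2 of 7 nerve and glia markers fell and none rose.

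Among the other E2s, UBE2L3, which serves ligases that take ubiquitin onto themselves, rose by 1.62 ± 0.11, UBE2K, which builds degradative chains, by 1.17, and UBE2M by 1.13. UBE2B, the RAD6 homologue long studied in muscle wasting, rose by 1.06 ± 0.10 and UBE2A by 0.65, and UBE2R2, which works with cullin ligases, by 0.97. UBE2W rose by 1.45 ± 0.30 with overlapping pools. UBE2D3, UBE2J2, UBE2D2 and UBE2O rose by 0.51, 0.46, 0.42 and 0.41. Of the dimmer UBE2D2 probe sets, one rose by 0.58 and the other did not pass (-0.13, adjusted p from limma 0.244). UBE2E2 fell by 1.07, UBE2E3 by 0.86, UBE2G2 by 0.63, UBE2H by 0.62, UBE2N by 0.60 and UBE2F by 0.49. The other UBE2H probe set did not pass (0.05, adjusted p from limma 0.705). A dimmer UBE2E3 probe set fell by 0.89, and another did not pass (-0.285, adjusted p from limma 0.079). UBE2Q1 and UBE2V2 did not pass. With the GAPDH covariate 5 of the 13 kept a call of higher, UBE2QL1 (3.59), UBE2D4 (3.09), UBE2L3 (1.66), UBE2M (1.51) and UBE2R2 (1.07), and 3 of the 8 a call of lower, UBE2C, UBE2E3 and UBE2N. Lost were the calls of UBE2K (0.83), UBE2B (0.64), UBE2D3 (0.63), UBE2O (0.54), UBE2A (0.51), UBE2W (-0.03), UBE2D2 (-0.06) and UBE2J2 (-0.34), and those of UBE2T, UBE2G2, UBE2E2, UBE2H and UBE2F (-1.60 to -0.40). Within Pi alone UBE2D3, UBE2O, UBE2G2 and UBE2N did not pass, and within DL alone UBE2O, UBE2W and UBE2J2 did not. UBE2O and UBE2G2 each lost the call in 1 of the 24 fits. Array weights per stage ended the adult calls of PSMA7, PSMB4, PSME2, PSMF1 and UBE2O, and a fit on only the 91 dpc and adult arrays those of PSMA7, PSME2, UBE2G2 and UBE2T. By the brightest probe set of each gene, PSMA6, PSMD13 and UBE2V1 passed at none of the 3 steps.

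**Figure D3:**
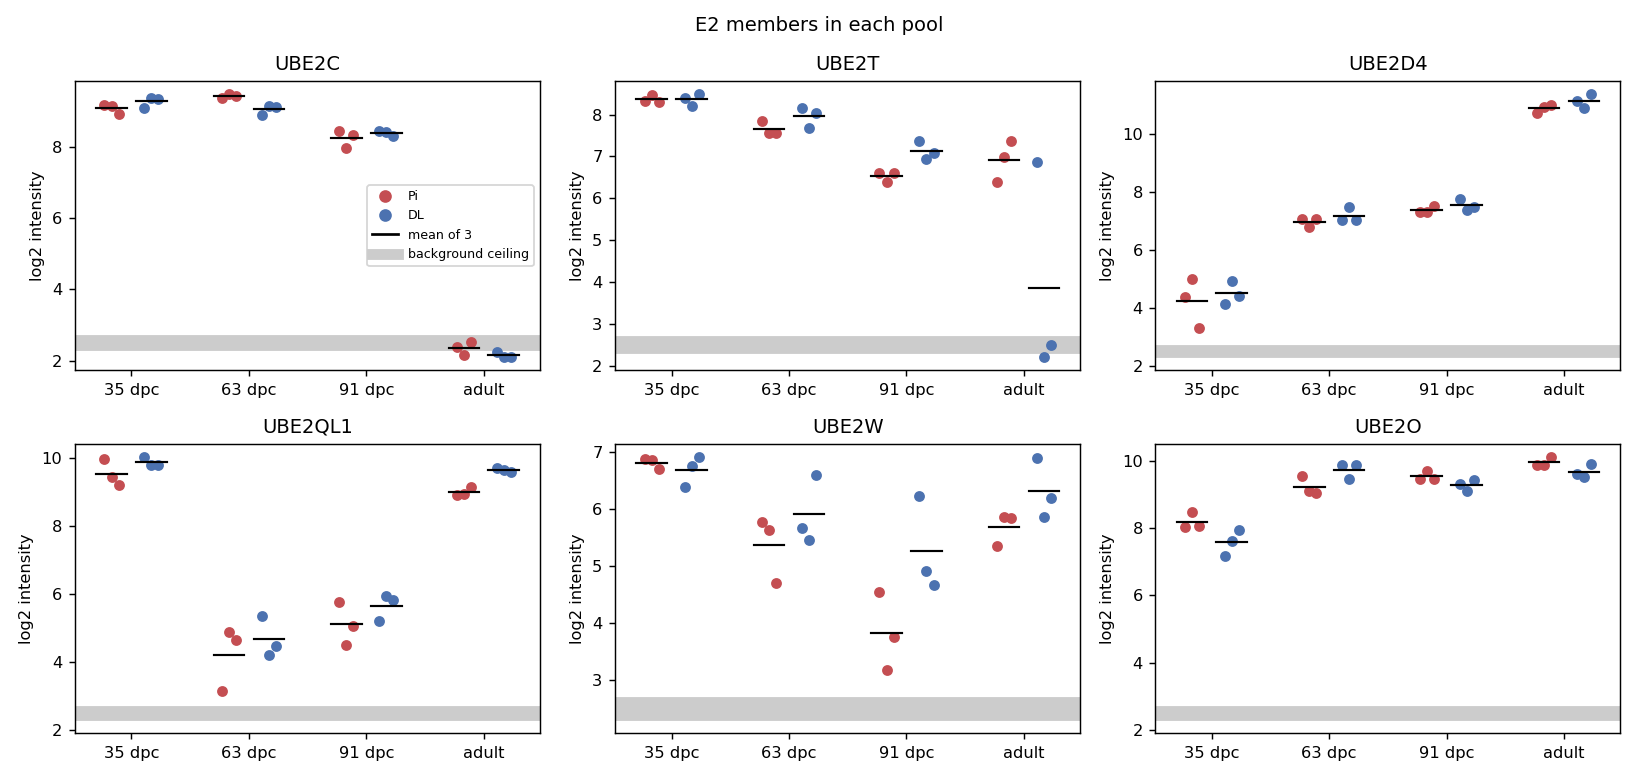
Log2 intensity of 6 E2 genes in every pool, Pi (red) left of DL (blue) at each stage, with the mean of 3 pools as a black line and the range of the background ceiling in grey. UBE2C is at background in all 6 adult pools, and UBE2T only in DL adult pools b and c.

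The immunoproteasome replaces catalytic subunits of the core after interferon signals and favours peptides for MHC class I. PSMB8, which takes the place of PSMB5, was at background in all 12 pools of 35 and 63 dpc. At 91 dpc it measured 3.84, 3.08 and 4.35 in Pi and 4.78, 4.99 and 4.31 in DL, all above background and at least 3.71-fold higher than at 63 dpc (adjusted p from limma 0.00264). The step within Pi alone did not pass (1.63, adjusted p from limma 0.142). In adults it measured 6.74, 6.63 and 6.37 in Pi and 7.11, 6.90 and 3.07 in DL. DL adult pool c lay just below the lowest pool of 91 dpc and the other 5 adult pools lay above all pools of 91 dpc. The change was 1.91 ± 0.47 over both breeds, 2.82 within Pi and 1.002 within DL, where it did not pass (adjusted p from limma 0.243). With the GAPDH covariate it was 1.13 with an adjusted p of 0.639 from limma.

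PSMB10, which takes the place of PSMB7, rose by 0.47 ± 0.14 at 63 over 35 dpc, with no overlap of the pools. Within DL alone the change was 0.20 with an adjusted p of 0.572 from limma, and after centring on bright probe sets it was 0.35 with 0.0507. Its later changes of 0.28 and 0.28 did not pass. PSME1 and PSME2, which form the interferon-induced activator ring, rose by 0.50 ± 0.09 and 0.60 ± 0.10 at 63 dpc; the step of PSME1 within DL alone was 0.28 with an adjusted p of 0.105 from limma. In adults over 91 dpc PSME1 changed by 0.00 ± 0.09 and PSME2 fell by 0.25 ± 0.10, a call lost in 19 of the 24 fits without 1 pool. With the GAPDH covariate PSME1 was called lower (-0.62, adjusted p from limma 0.0319) and PSME2 did not pass (-0.67, 0.107).

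The log2 difference between an induced subunit and the standard one it replaces was compared per array, 6 pools against 6, by exact two-sided permutation over 924 arrangements; 6 such tests were run and adjusted together. PSMB10 minus PSMB7 was -4.95 ± 0.20 at 63 dpc and -5.81 ± 0.14 at 35 dpc (SD, n = 6 each), an increase of 0.86 (adjusted p 0.00433, exact permutation test). It increased by 0.48 at 91 over 63 dpc (adjusted p 0.0162, exact) and by 0.55 in adults over 91 dpc (adjusted p 0.0312, exact). Leaving out any of 8 pools took the last above the threshold, to at most 0.0649. PSMB8 minus PSMB5 increased by at least 2.38 at 91 over 63 dpc, with PSMB8 values below background set to the ceiling of their array, and by 2.67 with the values as deposited (each adjusted p 0.00433, exact permutation test). It increased by 1.55 in adults over 91 dpc (adjusted p 0.0498, exact), and by 2.17 without DL adult pool c (adjusted p 0.00325, exact); leaving out any of 11 other pools gave an adjusted p of up to 0.0952. At 63 over 35 dpc PSMB8 was at background at both stages. The test of that difference cannot show a change of PSMB8 against PSMB5 there, and no conclusion is drawn from it. Unequal probe response means that these differences show unequal change and not which subunit was more abundant, and 3 pools against 3 within 1 breed cannot give an exact p below 0.1.

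Of 21 measured interferon-induced and MHC class I genes, 7 rose and 2 fell at 63 over 35 dpc, 11 rose and 1 fell at 91 over 63 dpc, and 16 rose and none fell in adults over 91 dpc. The log2 of their summed intensity was 14.97 to 15.76 at 35 dpc, 15.45 to 15.81 at 63 dpc, 15.25 to 15.47 at 91 dpc and 15.57 to 15.73 in adults. TAP1, the peptide transporter gene next to PSMB8 on the pig assembly Sscrofa11.1, fell by 1.91 at 63 over 35 dpc and rose by 1.65 and 2.52 at the later steps, and IRF1, an interferon-response factor, rose by 1.40, 1.70 and 0.93. Of 14 leukocyte markers, 3 rose at 63 over 35 dpc, 1 at 91 over 63 dpc and 5 in adults over 91 dpc, and none fell. The median change of the 14 was 0.08, -0.01 and 0.64 at these steps, and 3 to 5 of them were at background in each fetal group. CD74, of antigen-presenting cells, rose by 5.55, 1.74 and 0.61, while CD3D was at background in adults of both breeds. Bright markers weigh most in the summed level, which is taken on the linear scale. The log2 summed leukocyte level was 7.05 to 7.84 at 35 dpc, 8.24 to 9.13 at 63 dpc, 9.71 to 10.47 at 91 dpc and 10.68 to 11.13 in adults, and its part in the PSMB8 levels was not tested.

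**Figure D4:**
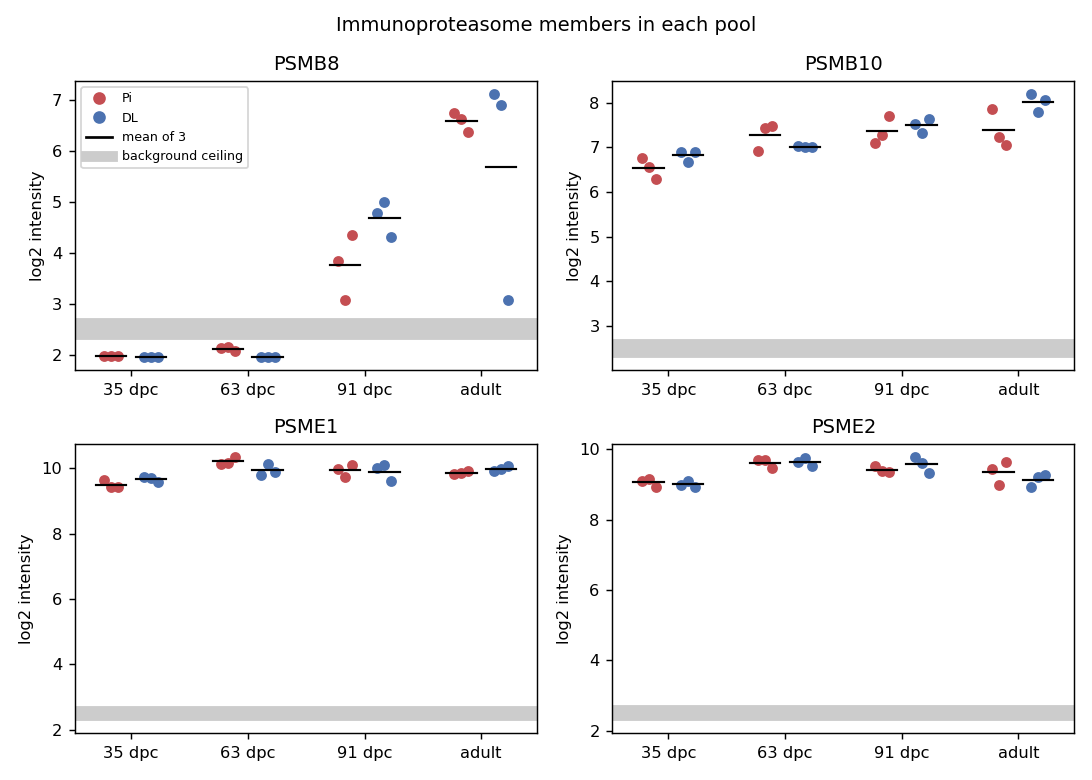
Log2 intensity of PSMB8, PSMB10, PSME1 and PSME2 in every pool, Pi (red) left of DL (blue) at each stage, with the mean of 3 pools as a black line and the range of the background ceiling in grey. PSMB8 leaves background at 91 dpc, and DL adult pool c, at 3.07, lies far below the other adult pools.

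Breed was compared at each stage as Pi over DL. At 35 dpc 5 of 64 members were higher and 3 lower in Pi, where 1.61% of all probe sets tested were called higher and 2.41% lower, and over the 6765 genes 1.94% and 3.58%. The largest differences were in the cap. PSMD4 measured 9.50, 10.62 and 10.62 in Pi, against 8.58, 8.43 and 8.19 in DL. All Pi pools were higher, by 1.85 ± 0.23 (adjusted p from limma 0.000168), although Pi pool a lay more than 1 unit below pools b and c. PSMD3 measured 8.48, 9.11 and 9.09 in Pi, against 7.94, 7.74 and 7.68 in DL, again without overlap, a difference of 1.11 ± 0.23.

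PSMA6 (0.41), UBE2D3 (0.47) and UBE2E3 (0.43) were also higher in Pi at 35 dpc, and PSMC1 (-0.40), UBE2H (-0.44) and UBE2L3 (-0.75) were lower. Leaving out single pools ended the calls of UBE2D3 (15 of 24 fits), UBE2E3 (6), PSMA6 (4) and PSMC1 (4). The call of UBE2H was lost without Pi pool a (-0.34, adjusted p from limma 0.0644), and that of UBE2L3 without DL pool b (-0.60, 0.0591). As the mean of all probe sets, UBE2H was -0.17 (adjusted p from limma 0.574) and UBE2E3 0.08 (1.0). Fitted on the 35 dpc arrays alone, PSMD4 and PSMD3 had adjusted p-values of 0.0612 and 0.0556 from limma, and of the other 6 members UBE2D3 passed. The GAPDH difference was 1.08 to 1.21 in Pi and 0.52 to 0.80 in DL at 35 dpc, and 8 of 14 muscle markers were lower in Pi; their part in these differences was not tested. With the GAPDH covariate the differences of PSMA6, PSMC1, UBE2D3 and UBE2E3 did not pass, nor did they with dim probe sets left out. The count of members that differed was 3 or 4 without DL pool a or b or Pi pool a or c of 35 dpc.

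At 63 dpc 5 members were lower in Pi and none higher, where 0.671% of all probe sets were called higher and 0.700% lower, and over genes 0.931% and 0.990%. PSMC1, PSMD4, PSMD1 and PSMC2 are genes of the cap and PSMD5 one of its assembly. PSMC1 had 10.22, 10.13 and 9.88 in Pi, against 10.78, 10.65 and 10.71 in DL, a difference of -0.63 ± 0.10 with no overlap. PSMD4, higher in Pi at 35 dpc, was lower here and measured 8.16, 7.87 and 7.89 in Pi, against 9.01, 8.96 and 9.21 in DL, or -1.08 ± 0.23. PSMD5 (-0.68), PSMD1 (-0.61) and PSMC2 (-0.41) were the others. The calls of PSMC2, PSMD5, PSMD1 and PSMD4 were lost in 13, 12, 4 and 4 of the 24 fits without 1 pool, those of the last 2 when pool a or c of DL or pool b or c of Pi at 63 dpc was left out. Only 1 member differed when any of those 4 pools was left out, and 3 without Pi pool a of 63 dpc or any of 5 pools of other stages (DL a and b and Pi a of 35 dpc, DL b of 91 dpc, adult DL a). Fitted on the 63 dpc arrays alone, none of the 5 passed. That fit called 3 of all 23999 probe sets higher and 8 lower in Pi, against 161 and 168 in the main fit. As the mean of all probe sets PSMD1 was -0.40 (adjusted p from limma 0.134) and PSMC2 -0.18 (0.304). With dim probe sets left out PSMD5 and PSMC2 did not pass, nor did PSMD5 with the GAPDH covariate. Of 11 liver and plasma genes 3 were lower in Pi at 63 dpc and none higher, with a median of -4.10. Their log2 summed level was 11.42 to 11.63 in Pi and 13.13 to 15.12 in DL, and APOA2, TTR, SERPINA1 and TF were at background in all Pi pools. The sum of 5 erythroid markers was 9.19 to 9.63 in Pi and 10.27 to 10.78 in DL, with 1 marker lower. The part of these markers in the breed differences was not tested.

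At 91 dpc 4 members were lower in Pi and none higher, where 1.35% of all probe sets were called higher and 1.38% lower, and over genes 1.35% and 2.28%. PSMD4 measured 7.35, 7.60 and 8.05 in Pi, against 9.09, 9.13 and 9.02 in DL, a difference of -1.41 ± 0.23 (adjusted p from limma 0.00355). UBE2M, a NEDD8 E2, measured 8.36, 8.38 and 9.06 in Pi, against 9.71, 9.45 and 9.95 in DL, or -1.11 ± 0.16. PSMB3 was 0.86 ± 0.19 lower in Pi on the log2 scale, with values given above. None of these 3 genes had overlapping pools. Without DL pool a, Pi pool a or Pi pool b the adjusted p of PSMB3 was 0.0924, 0.0929 and 0.0585 (limma). UBE2N (-0.52) lost its call in 18 of the 24 fits, with the GAPDH covariate (-0.31, adjusted p from limma 0.457), with dim probe sets left out (0.0718) and after centring on bright probe sets (0.0509). Without DL pool c at 91 dpc, the pool with the high GAPDH difference, 8 members differed in place of 4, and 2 differed without DL pool a, Pi pool a or Pi pool b. Fitted on the 91 dpc arrays alone, none passed. That fit called 9 of all 23999 probe sets higher and 7 lower in Pi, against 323 and 330 in the main fit.

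In adults 1 member was higher and 1 lower in Pi, where 2.89% of all probe sets were called higher and 3.44% lower, and over genes 3.05% and 3.92%. UBE2T was 3.05 ± 0.75 higher in Pi, with the values given above and DL pools b and c at background. Its size is fitted to those background values and is no fold. Its call was lost without DL pool b (2.22, adjusted p from limma 0.0893), DL pool c (2.37, 0.0796) or Pi pool c (2.82, 0.0634). UBE2F measured 8.01, 8.38 and 7.77 in Pi, against 8.86, 8.54 and 8.60 in DL, or -0.62 ± 0.16. The pools of UBE2F did not overlap, but its call was lost without DL pool a (-0.52, adjusted p from limma 0.104), Pi pool a (-0.60, 0.0628) or Pi pool c (-0.47, 0.109). Without Pi pool c neither passed, nor with lower weight for the more variable adult arrays. Over all probe sets that weighting called 115 higher and 128 lower in adult Pi, against 694 and 825 in the main fit.

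**Figure D5:**
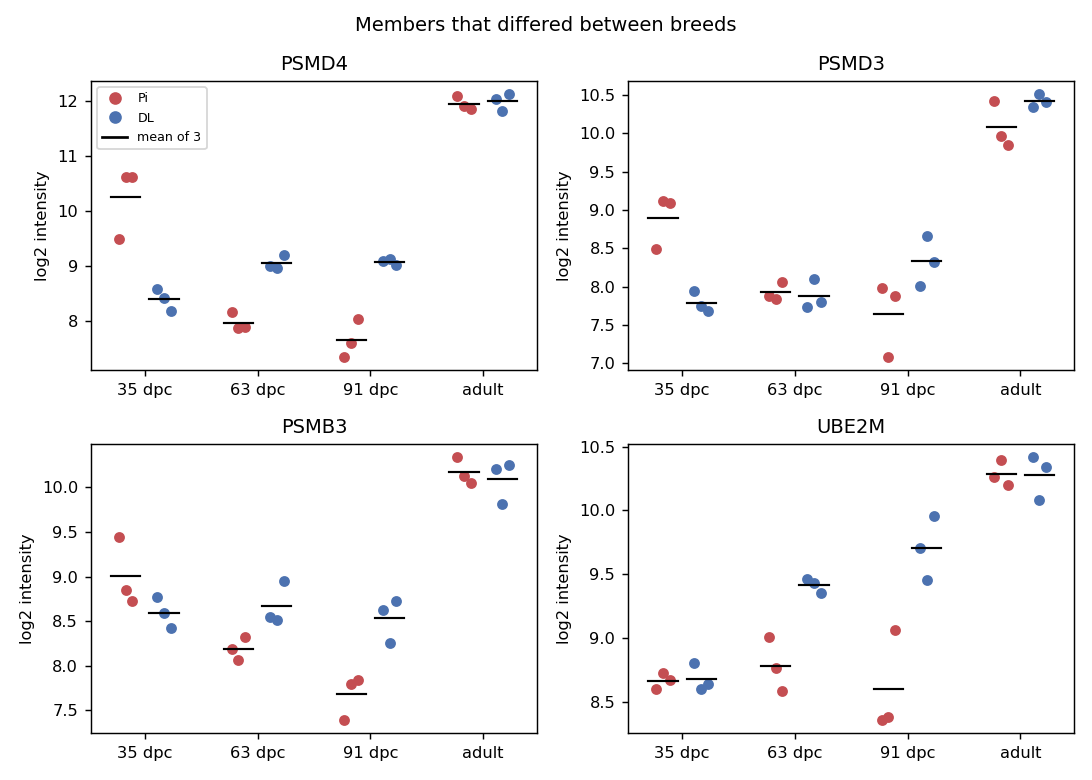
Log2 intensity of PSMD4, PSMD3, PSMB3 and UBE2M in every pool, Pi (red) left of DL (blue) at each stage, with the mean of 3 pools as a black line. PSMD4 is higher in Pi at 35 dpc, lower in Pi at 63 and 91 dpc, and overlaps between breeds in adults.

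Whether a stage step differed between breeds was tested as an interaction, the step in Pi minus the step in DL. Between 35 and 63 dpc 5 of 64 members passed, where 3.30% of all probe sets and 5.19% of the genes did, so the members' share is near the background. All 5 were negative. PSMD4 changed by -2.27 ± 0.23 in Pi and by 0.66 ± 0.23 in DL, so the steps ran opposite ways, with an interaction of -2.93 ± 0.33 (adjusted p from limma 0.000164). UBE2D3 changed by -0.70 in Pi and 0.24 in DL, UBE2O by 1.04 and 2.16, PSMC6 by -1.47 and -0.75, and PSMC2 by -0.56 and -0.01. The interactions of UBE2O, PSMC6 and PSMC2 were lost in 8, 10 and 8 of the 24 fits without 1 pool, and 2 or 3 members passed without any DL pool of 35 dpc, Pi pool b or c of 35 dpc, DL pool a of 63 dpc or any Pi pool of 63 dpc. As the mean of all probe sets the interactions were -0.18 for PSMC2 (adjusted p from limma 0.512) and -1.02 for UBE2O (0.285). Those of PSMC6 and UBE2O were also lost with the GAPDH covariate, those of PSMC6 and PSMC2 with dim probe sets left out, and that of UBE2O in a fit on only the groups compared. Between 63 and 91 dpc no member passed by limma, where 0.0917% of all probe sets and 0.0887% of the genes did.

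In adults over 91 dpc 3 members passed, where 2.66% of all probe sets and 3.03% of the genes did, and all 3 rose more in Pi. PSMD4 rose by 4.28 ± 0.23 in Pi and 2.91 ± 0.23 in DL, an interaction of 1.37 ± 0.33. UBE2M rose by 1.69 in Pi and 0.58 in DL, and PSMD1 by 1.51 and 0.77. The interactions of PSMD4 and PSMD1 were lost in 6 and 5 of the 24 fits without 1 pool, and 1 member passed without DL pool a or Pi pool a of 91 dpc. Those of PSMD4 and PSMD1 were also lost with the GAPDH covariate (adjusted p from limma 0.111 and 0.0673). As the mean of all probe sets that of PSMD1 was 0.50 (adjusted p from limma 0.155). Array weights per stage and a fit on only the groups compared each ended all 3, and leaving out dim probe sets ended that of PSMD1. Over all probe sets array weights called 57 positive and 75 negative interactions here, and the fit on only the groups compared 40 and 40. The main fit called 285 and 353. The interaction of UBE2M held in all 24 fits and was lost with array weights (adjusted p from limma 0.142).

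Other genes of the pathway were counted from lists. Of 5 measured E1 genes, 4 fell at 63 over 35 dpc, 1 fell at 91 over 63 dpc, and in adults over 91 dpc 1 rose and 3 fell. NAE1, a subunit of the NEDD8-activating enzyme, fell by 1.72 and later rose by 0.78 in adults, while UBA3, its partner, fell by 0.83 and by 0.96 in adults. Of 8 measured receptors and regulators linked to the proteasome, 3 fell at 63 over 35 dpc, 1 rose and 3 fell at 91 over 63 dpc, and 7 rose and 1 fell in adults. TXNL1, a redox protein of the cap, rose by 2.17 in adults, AKIRIN2, which brings proteasomes into the nucleus, by 1.95, and ZFAND5, a proteasome activator, by 1.57.

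Of 8 measured cullin and anaphase-promoting complex genes, 2 rose and 1 fell at 63 over 35 dpc, 1 rose and 1 fell at 91 over 63 dpc, and 3 rose and 1 fell in adults. CDC34, itself an E2 under another symbol, rose by 2.05, 0.67 and 2.29 at the 3 steps, CUL4A rose by 2.34 in adults, and CDC20 fell in adults, where it was at background in all DL pools. Of 5 measured muscle ubiquitin ligases, 3 rose at 63 over 35 dpc, none passed at 91 over 63 dpc, and 4 rose and 1 fell in adults. FBXO32 (atrogin-1), the atrophy ligase, rose by 2.11 at 63 dpc and 3.92 in adults, and TRAF6 rose by 2.59 in adults. Of the 2 measured ubiquitin genes, UBB passed at no step, and RPS27A, which encodes ubiquitin fused to a ribosomal protein, fell by 0.25 at 63 dpc and 1.42 in adults.

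The probe sets of a gene did not always go together. Among the 16 members with several probe sets, all probe sets had the same call for 8 genes at 63 over 35 dpc, 8 at 91 over 63 dpc and 10 in adults over 91 dpc. Opposite calls were made for 2 genes at the first step, none at the second and 1 at the third, which is UBE2C with its dim probe set. UBE2D2 fell by 0.44 at 63 dpc by its brightest probe set and rose by 0.34 by another, and in UBE2V1 2 dimmer probe sets changed by -0.39 and 2.71 while the brightest did not pass. The first of these dimmer UBE2V1 probe sets also fell by 0.59 at 91 over 63 dpc and rose by 0.61 in adults. The 3 probe sets of PSMC2 all fell at 63 dpc (-0.29 to -0.50) and all rose in adults (0.65 to 1.19).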

How the data were processed

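RNA of 24 pools was measured on Affymetrix porcine arrays. The authors deposited one table of log2 values, quantile-normalised in effect, since all 24 sorted columns are identical. Scanning software was GCOS 1.1.1, per the submitters' processing notes; for background correction and summarisation no method is given in the sources used here, and the log base was inferred from the range of 1.60 to 16.10. Of 24123 probe sets, 124 controls were left out and 23999 tested; 10069 carry 1 gene symbol, 198 several and 13732 none in GEO's platform annotation. Of the members, 61 lay above the background ceiling, the highest of 23 negative controls, on all arrays.

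A limma 3.58.1 (R 4.3.3) model with a mean for each of 8 groups gave 3 stage steps averaged over breeds, 4 breed differences and 3 interactions, with 16 residual degrees of freedom. P-values were adjusted by Benjamini-Hochberg over all 23999 probe sets, with calls under 0.05; the pipeline was tested on simulated data. Arrays limit the precision through their number, 3 pools a group. Alternatives were other probe set summaries, a filter on dim probe sets, recentring, array weights, other moderation, only the groups compared, the pool letter as a block and each pool left out. Pools with the same letter in other groups had a mean correlation of deviations of -0.0022 and are not treated as pairs.

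Named members were the 10 largest non-overlapping rises and falls of each step, the 6 largest called differences of each breed comparison and interaction, and a panel of members; UBE2W and the smaller changes of members outside these were named to account for every member, after their values were seen. Up to 3 genes were named in each pathway list. The members and lists were chosen with earlier results of these data known. No sequences are shown.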

Additional observations from a re-analysis of the deposited data

Results flagged for a closer look

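For 8 results the test of the difference between breeds itself passed, as the step in Pi minus the step in DL. Between 35 and 63 dpc these were PSMD4 (-2.93), UBE2O (-1.11), UBE2D3 (-0.94), PSMC6 (-0.72) and PSMC2 (-0.55) on the log2 scale. In adults over 91 dpc they were PSMD4 (1.37), UBE2M (1.11) and PSMD1 (0.74). These are 5 and 3 of the 64 members, where 5.19% and 3.03% of the 6765 genes passed. Leaving out single pools ended the first-step calls of UBE2O, PSMC6 and PSMC2 and the adult calls of PSMD4 and PSMD1. Array weights per stage and a fit on only the groups compared each ended all 3 adult interactions. Over all probe sets these settings called 57 positive and 75 negative and 40 and 40, against 285 and 353 in the main fit. As the mean of all probe sets of a gene, the interactions of PSMC2 (-0.18, adjusted p from limma 0.512), UBE2O (-1.02, 0.285) and PSMD1 (0.50, 0.155) did not pass. PSMD4 appears at both steps: its interaction was negative at the first and positive at the last, and its breed difference changed sign between 35 and 63 dpc. Groups of 3 pools are too small to test for a single pool far from the others.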

How the results depend on the processing

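Of the 144 called changes of single members, 11 changed sign under an alternative, and the others kept theirs. With the GAPDH covariate, 6 of the members called higher in adults over 91 dpc did: PSMB1 (-0.2095), PSMB5 (-0.0002), PSMD8 (-0.1112), UBE2D2 (-0.0607), UBE2J2 (-0.336) and UBE2W (-0.0317). Within DL alone PSMB3 (0.0733), PSMD3 (0.0945), PSMD4 (0.6602) and UBE2D3 (0.2361) changed sign at 63 over 35 dpc, and within Pi alone UBE2T (0.3812) in adults over 91 dpc. Leaving out 1 pool ended 37 of the 144 calls in at least 1 of 24 fits, and the fits on only the groups compared ended 32. With the pool letter as a replicate block the counts were 15 higher and 30 lower at 63 over 35 dpc, 4 and 14 at 91 over 63 dpc, and 41 and 12 in adults over 91 dpc, and no other count of members changed. Leaving out 1 pool gave 15 to 16 higher and 25 to 30 lower, 3 to 5 and 11 to 14, and 39 to 43 and 10 to 13 at these steps. It gave 3 to 9, 1 to 5, 2 to 8 and 0 to 2 breed differences from 35 dpc to adults, and 2 to 7, 0 to 0 and 1 to 4 interactions at the 3 steps. Within DL alone 18 were lower at 63 dpc, and 2 higher and 6 lower at 91 dpc; within Pi alone 2 were higher at 91 dpc and 7 lower in adults. The GAPDH covariate gave 18 higher and 7 lower in adults and 1 interaction in adults over 91 dpc. Array weights per stage gave 17, 9 and 0 breed differences at 35 dpc, 63 dpc and in adults, and 10 and 0 interactions at the first and last step. Over all 23999 probe sets those weights called 1206 higher and 1540 lower in Pi at 35 dpc, against 387 and 579 in the main fit. The numbers at 63 dpc were 395 and 421 against 161 and 168, and in adults 115 and 128 against 694 and 825. Fits on only the groups compared gave 5, 0, 0 and 0 breed differences and 8 and 0 interactions at the first and last step. Over all probe sets these fits called 3 higher and 8 lower at 63 dpc, 9 and 7 at 91 dpc and 10 and 11 in adults. Leaving out dim probe sets gave 4 and 3 breed differences at 35 and 63 dpc and 3 interactions at the first step. The mean of all probe sets gave 3 breed differences at 63 dpc and 4 in adults, and fetal arrays only gave 7 at 91 dpc. The cause of these shifts was not tested. The GAPDH covariate, the fetal arrays, the fits within a breed and the background ceiling as a floor for the subunit pairs were chosen after seeing the data. Within Pi, 3 pools against 3, PSMB8 minus PSMB5 changed by -0.43, 2.23 and 2.47 over the 3 steps and PSMB10 minus PSMB7 by 1.06, 0.25 and 0.38; within DL these were -0.53, 3.12 and 0.63, and 0.66, 0.70 and 0.72, in a design that cannot pass the threshold. Leaving out 1 pool gave -0.52 to -0.45, 2.54 to 2.86 and 1.36 to 2.17 for the first pair and 0.80 to 0.89, 0.40 to 0.57 and 0.46 to 0.67 for the second. For PSMB8 minus PSMB5 at 63 over 35 dpc, PSMB8 was at background at both stages. The values of -0.43, -0.53 and -0.52 to -0.45 therefore cannot show a change of PSMB8 against PSMB5, and no conclusion is drawn from them. PSMB9 minus PSMB6 was not run because no probe set carries the symbol PSMB9 alone. PSMB8 at 35 and 63 dpc and UBE2C in adults are limited by background.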
